A study of Homo sapiens with 4 samples.

Results

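The genes described here are 34 genes of glucose uptake, glycolysis and the onward use of pyruvate and glycerol phosphate, followed in HCT116 cells after RNA interference against CDK8. They were chosen by function, as members of one metabolic route, with earlier results of these data known. A gene counted as measured where a transcript cluster, the array's unit for the transcripts of 1 gene, carried its symbol alone in the platform annotation. This held for 32 of the 34, each with 1 cluster, out of 22421 genes measured in that way. The other 2, SLC16A1 and SLC16A3, which encode the monocarboxylate transporters MCT1 and MCT4, were not analysed here. HCT116 is an established human colon cancer cell line, and CDK8 is the kinase of the detachable kinase module of the Mediator complex. One group of 2 arrays came from cells transfected for 48 h with 50 nM of siRNA against CDK8, and the reference group of 2 arrays came from cells given a control siRNA in the same way, with Lipofectamine RNAiMAX in both. The labels call the arrays of a group biological replicates. Nothing in them says that the cells were grown or transfected separately, and the p-values therefore reflect only the scatter of these 4 arrays, which may be technical. They give neither siRNA sequence and describe 1 CDK8 siRNA group, so loss of CDK8 and other effects of that siRNA cannot be told apart.

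Glucose enters cells through facilitative transporters of the SLC2A (GLUT) family and is trapped by hexokinases. Phosphofructokinase, stimulated by the fructose-2,6-bisphosphate that PFKFB enzymes make and remove, commits it to glycolysis, and pyruvate kinase ends the route at pyruvate. Pyruvate is then reduced to lactate by lactate dehydrogenase or oxidised in mitochondria by the pyruvate dehydrogenase complex, which the PDK kinases switch off by phosphorylation. The glycerol phosphate shuttle carries electrons of cytosolic NADH to the respiratory chain through the mitochondrial dehydrogenase GPD2. Many cancer cells, colon cancer cells among them, ferment much of their glucose to lactate even when oxygen is present, and several of these genes are classic targets of the transcription factors HIF-1 and MYC.

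CDK8 had log2 signals of 7.25 and 7.45 on the CDK8 siRNA arrays, against 9.99 and 10.04 on the control siRNA arrays, so it was 6.34-fold lower (adjusted p = 4.45e-05, limma with Benjamini-Hochberg adjustment). Arrays correlated with r = 0.9973 and 0.9982 within the groups and with 0.9634 to 0.9651 between them. The median signal of all transcript clusters was 4.32 and 4.31 on the CDK8 siRNA arrays, against 4.24 and 4.24 on the control siRNA arrays. Of 7 epithelial markers 5 lay above the signal filter described next (EPCAM, CDH1, KRT8, KRT18 and KRT19), while the intestinal markers VIL1 and CDX2 lay below it. Of 8 measured markers of blood, fibroblast and endothelial cells 7 lay below it, and COL1A1 read 4.72 to 5.02. The adhesion gene CDH1 differed between the groups, with 10.06 and 9.90 on the CDK8 siRNA arrays, against 7.02 and 7.28 on the control siRNA arrays (adjusted p = 6.13e-05), and EPCAM rose 1.57-fold (adjusted p = 0.00119). KRT19 was called higher (0.43, adjusted p = 0.0317), KRT18 lower (-0.34, adjusted p = 0.0304), and KRT8 differed by 0.05 (adjusted p = 0.802), so the epithelial markers did not move one way. COL1A1 was called higher (0.26, adjusted p = 0.0288). The calls of KRT18 and COL1A1 did not hold with any 1 of the 4 arrays left out (adjusted p = 0.0831 to 0.200 and 0.0841 to 0.136), nor that of KRT19 without CDK8 siRNA replicate 1 (adjusted p = 0.0751) or control siRNA replicate 1 or 2 (adjusted p = 0.204 and 0.235). The part of these markers in the results on the metabolic genes was not tested. Signals are log2 RMA values, a log scale on which 1 unit is a 2-fold step. The filter kept genes with a 4-array mean of at least 4.28, which is the median signal of all transcript clusters, and all 32 measured members passed it. A gene was called where its adjusted p was below 0.05 over the 13962 genes tested, and differences are CDK8 siRNA minus control siRNA with the standard error of limma (n = 2 per group).

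Of the 32 measured genes 15 fell, 5 rose and 12 did not pass the test. Over all tested genes 26.3% were called lower and 23.1% were called higher, so the share of members called lower, 46.9%, lay above that background and the share called higher, 15.6%, lay below it. These counts rest on every array: with any 1 left out, fewer members were called in both directions. The same held for all tested genes, so that drop is not read as a trait of the members. With arrays centred on their medians 15 members were called lower and 3 higher. Over all tested genes that centring gave 4359 lower and 2743 higher, in place of 3678 and 3229. The median difference of the members was -0.02, against 0.005 over all genes. Over the 25 members that passed a stricter filter, at the 75th percentile of signal, it was -0.31, against -0.01 over the 8481 genes that did. Under that filter 13 of the 25 members were called lower and 4 higher, where 2816 and 2595 of the 8481 genes were. Both shares of this brighter background exceed those over all tested genes, so the background itself depends on signal level. Against it the members still had the larger share called lower and the smaller share called higher, a contrast that was not tested. A called fall of at least 2-fold was measured for 5 members (SLC2A1, HK2, ALDOC, PDK3 and GPD2), against a background of 5.64%. A called rise of at least 2-fold was measured for 1, SLC2A3, against a background of 5.11%. The signals of the groups did not overlap in 12 members that read higher and 15 that read lower, where 36.4% and 38.3% of all tested genes did the same. Every called member is among these, so a lack of overlap adds nothing to a call. The counts by role below have the same background, 26.3% called lower and 23.1% called higher. In bulk RNA, fewer cells with a transcript and less of it per cell cannot be told apart.

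**Figure D1:**
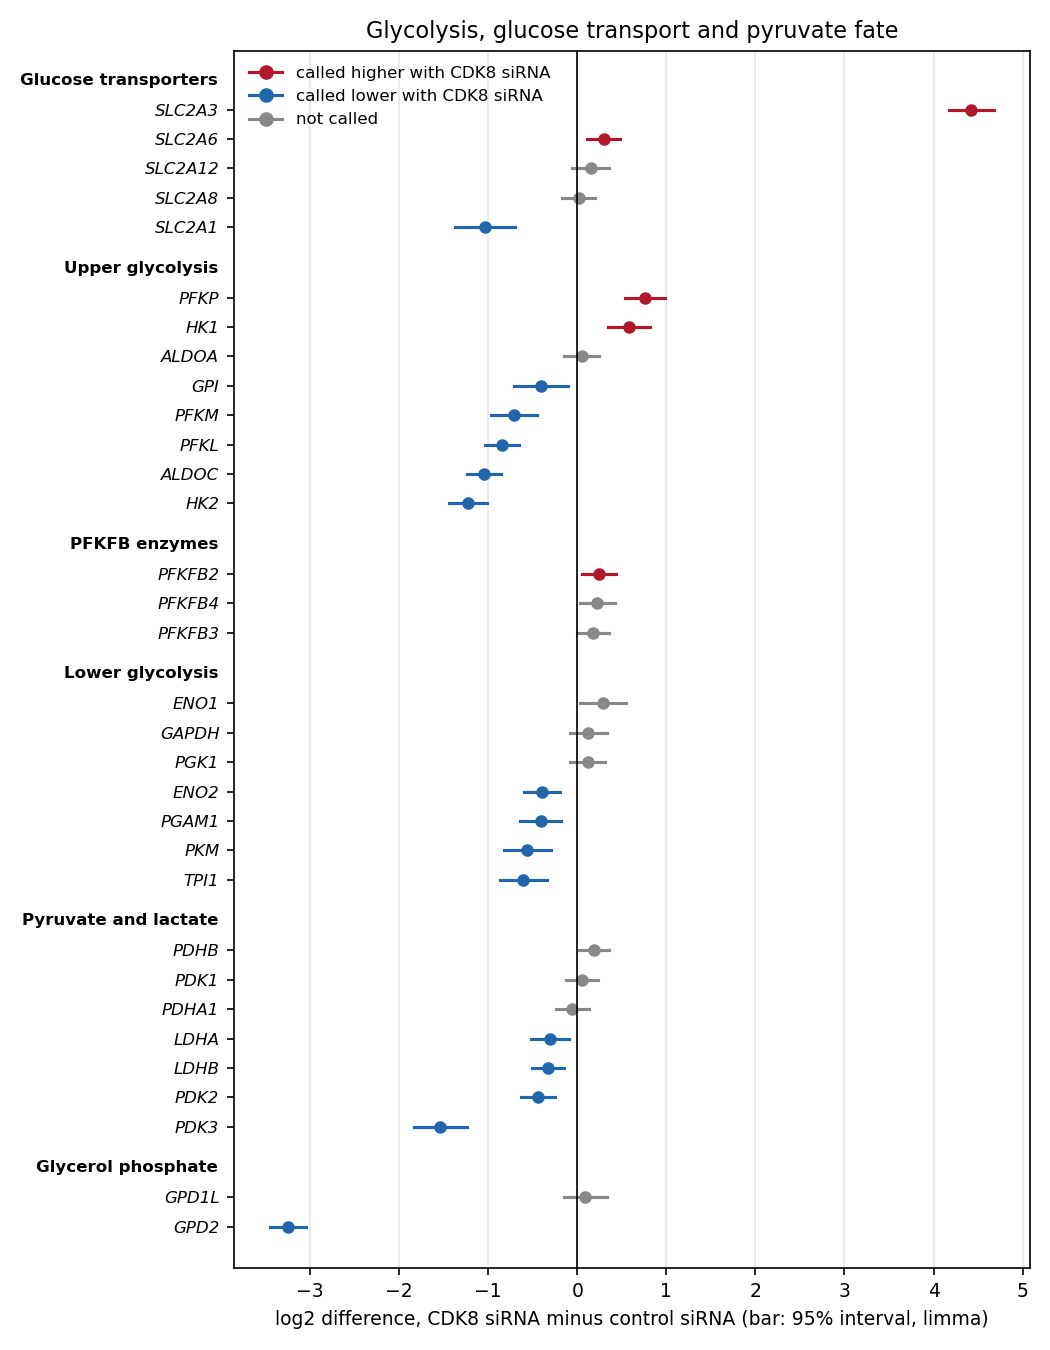
Log2 difference (CDK8 siRNA minus control siRNA, x axis) of the 32 measured genes, grouped by role, with the 95% interval of limma as a bar (n = 2 arrays per group). Red marks the 5 genes called higher, blue the 15 called lower and grey the 12 not called, and SLC2A3 at 4.42 and GPD2 at -3.25 stand far outside the others.

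**Figure D2:**
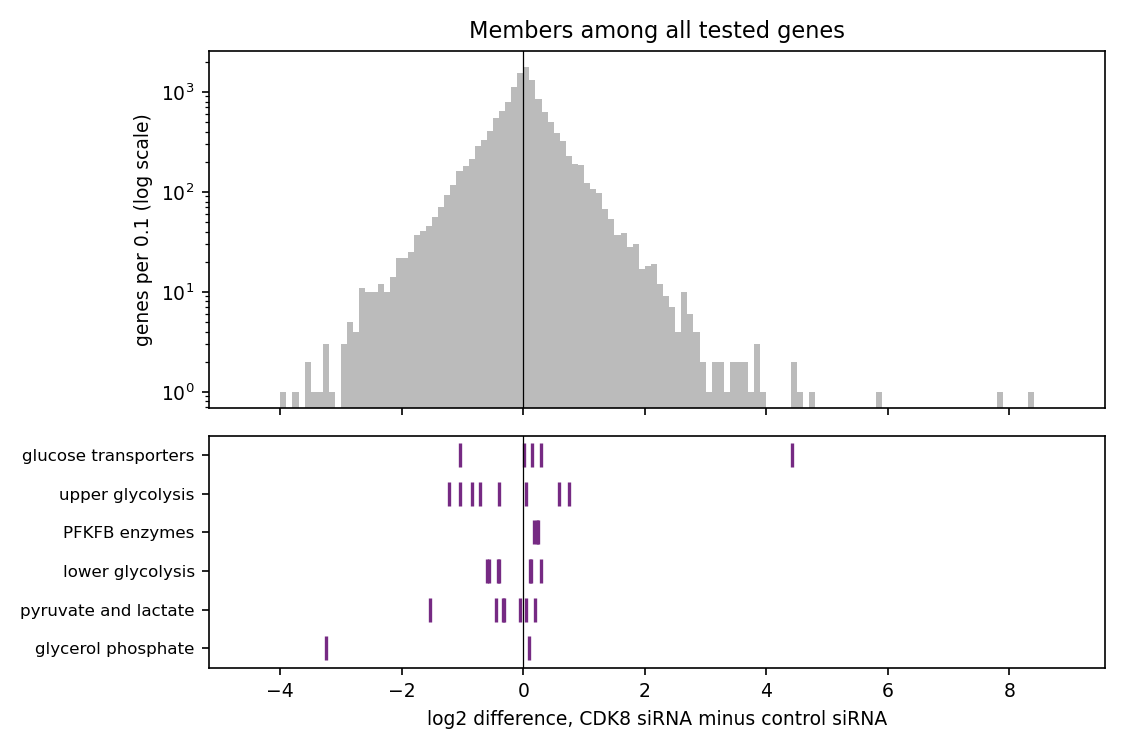
Log2 differences of all 13962 tested genes (top, genes per bin of 0.1 on a log axis) above those of the 32 members (bottom, 1 tick per gene, by role). Apart from SLC2A3 and GPD2, which lie in the tails, the members lie between -1.54 and 0.76.

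The glucose transporters split, with 2 called higher, 1 called lower and 2 not called of 5. SLC2A3, which encodes GLUT3, a high-affinity transporter best known from neurons, read 9.79 and 9.84 on the CDK8 siRNA arrays, against 5.51 and 5.27 on the control siRNA arrays. Both CDK8 siRNA arrays lay far above both control siRNA arrays. The difference of 4.42 ± 0.10 is a 21.5-fold rise (adjusted p = 3.14e-05, limma), rank 7 among the rises of all tested genes. RMA compresses differences at low signal, so a fold set against a control level near 5 may be understated. SLC2A14, a near-identical duplicate of SLC2A3, read 6.54 and 6.45 on the CDK8 siRNA arrays, against 5.27 and 5.22 on the control siRNA arrays, a rise of 1.25 ± 0.07 (adjusted p = 0.000147). Probes of one copy may capture transcripts of the other, which was not tested.

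SLC2A1, which encodes GLUT1, the basal glucose transporter of most dividing cells, moved the other way. Its signals were 10.58 and 10.44 on the CDK8 siRNA arrays, against 11.73 and 11.36 on the control siRNA arrays. The groups did not overlap, as in every called member. The control arrays lay further apart than the arrays of either group did for any other member (SD 0.262). The gene was 2.05-fold lower (-1.03 ± 0.14, adjusted p = 0.00191), a call that did not hold without CDK8 siRNA replicate 1 or 2 (adjusted p = 0.0611 and 0.0733). SLC2A6, encoding GLUT6, was called higher by 0.29 ± 0.07 (adjusted p = 0.0217). That call was lost with arrays centred on their medians (adjusted p = 0.0525), without CDK8 siRNA replicate 1 or 2 (adjusted p = 0.0900 and 0.0582) and without control siRNA replicate 1 or 2 (adjusted p = 0.0987 and 0.136). SLC2A12 (GLUT12) differed by 0.15, with a 95% interval of -0.06 to 0.36. SLC2A8, encoding the intracellular transporter GLUT8, differed by 0.015, with an interval of -0.17 to 0.20, at signals of 4.61 to 4.69 close to the filter level.

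**Figure D3:**
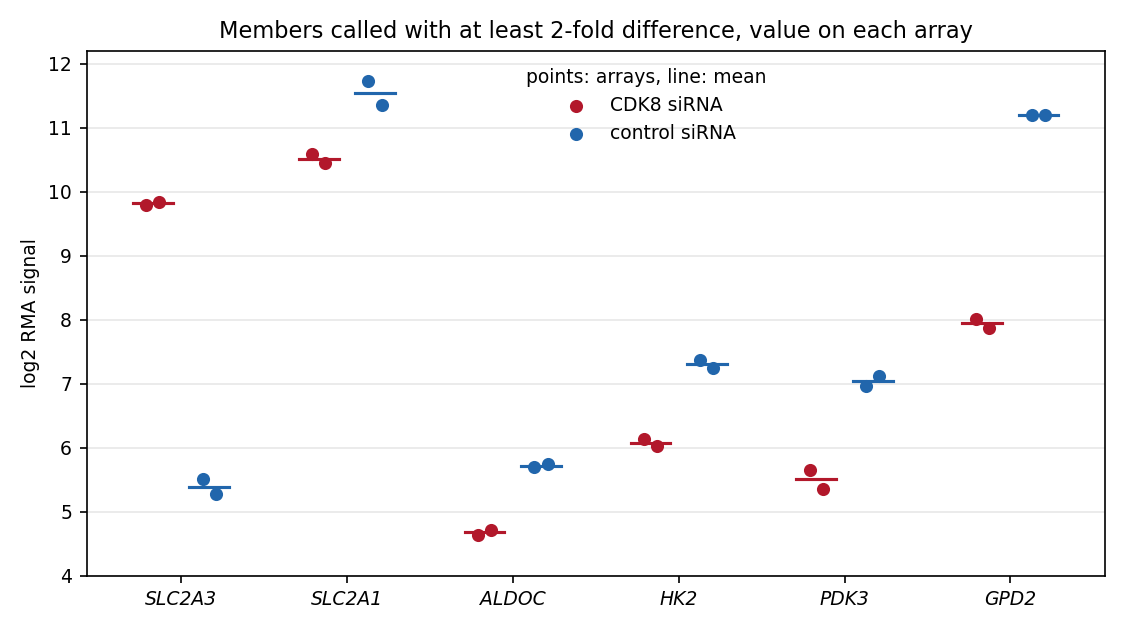
Log2 RMA signal (y axis, from 4) of the 6 members called with a difference of at least 2-fold, with CDK8 siRNA arrays in red left of the control siRNA arrays in blue; each point is 1 array and each line the mean of 2. The 6 were picked by their calls, and their groups do not overlap, as in every called member. SLC2A3 is the gene that is higher with CDK8 siRNA.

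From hexokinase to aldolase, 5 of 8 genes fell, 2 rose and 1 did not pass. Paralogs of the same reaction went opposite ways at both regulated steps. HK2, the inducible hexokinase that many tumours overexpress, read 6.14 and 6.02 on the CDK8 siRNA arrays, against 7.37 and 7.24 on the control siRNA arrays, and fell 2.34-fold (-1.23 ± 0.09, adjusted p = 0.00023). HK1, the hexokinase most tissues express, read 8.30 and 8.09 on the CDK8 siRNA arrays, against 7.60 and 7.63 on the control siRNA arrays, and rose 1.49-fold (0.58 ± 0.09, adjusted p = 0.00394). Neither hexokinase gene had overlapping groups, nor did any other called member. The call of HK1 did not hold without control siRNA replicate 1 or 2 (adjusted p = 0.0831 and 0.0782), while that of HK2 held with each array left out.

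Phosphofructokinase showed the same kind of split among its 3 subunit genes. PFKP, the platelet type, read 10.34 and 10.15 on the CDK8 siRNA arrays, against 9.49 and 9.48 on the control siRNA arrays, and rose 1.69-fold (0.76 ± 0.09, adjusted p = 0.00122). PFKL, the liver type, read 6.51 and 6.38 on the CDK8 siRNA arrays, against 7.29 and 7.29 on the control siRNA arrays, and fell 1.80-fold (-0.85 ± 0.08, adjusted p = 0.000546). PFKM, the muscle type, fell 1.64-fold (-0.71 ± 0.10, adjusted p = 0.0027). For all 3, as for every called member, the CDK8 siRNA arrays lay wholly on one side of the control arrays. The PFKM call did not hold without control siRNA replicate 1 or 2 (adjusted p = 0.0701 and 0.0537), and the PFKP call without control siRNA replicate 2 (adjusted p = 0.0520).

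Of the aldolases, which cleave fructose-1,6-bisphosphate, ALDOC read 4.63 and 4.72 on the CDK8 siRNA arrays, against 5.69 and 5.75 on the control siRNA arrays. This brain-type aldolase fell 2.06-fold (-1.04 ± 0.07, adjusted p = 0.000246) to a level not far above the filter. ALDOA, the widely expressed form, differed by 0.05 (95% interval -0.15 to 0.25), with overlapping groups. GPI, which converts glucose-6-phosphate to fructose-6-phosphate, was called lower (-0.41 ± 0.12, adjusted p = 0.0386). The GPI call was lost without the signal filter (adjusted p = 0.0711), without CDK8 siRNA replicate 1 or 2 (adjusted p = 0.0674 and 0.199) and without control siRNA replicate 1 or 2 (adjusted p = 0.277 and 0.148).

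The 3 PFKFB genes, whose enzymes set the level of the phosphofructokinase activator fructose-2,6-bisphosphate, all read slightly higher at dim signals of 5.53 to 6.52. PFKFB2 read 5.88 and 5.80 on the CDK8 siRNA arrays, against 5.63 and 5.56 on the control siRNA arrays, and was called (0.24 ± 0.07, adjusted p = 0.0402). PFKFB4 differed by 0.23 (adjusted p = 0.0622) and PFKFB3, the isoform with the strongest kinase activity, by 0.17 (adjusted p = 0.103), without passing. The upward shifts of the 3 members stand beside the higher median signal of the CDK8 siRNA arrays given above. With arrays centred on their medians PFKFB2 differed by 0.17 and was not called (adjusted p = 0.107). Its call was also lost with quantile normalization (adjusted p = 0.0501), without the filter (adjusted p = 0.0529), without CDK8 siRNA replicate 1 or 2 (adjusted p = 0.129 and 0.0797) and without control siRNA replicate 1 or 2 (adjusted p = 0.117 and 0.183).

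From triose phosphate to pyruvate 4 of 7 genes fell, 0 rose and 3 did not pass. TPI1, which interconverts the triose phosphates, read 9.36 and 9.09 on the CDK8 siRNA arrays, against 9.86 and 9.80 on the control siRNA arrays, and fell 1.52-fold (-0.60 ± 0.11, adjusted p = 0.0057). PKM, the pyruvate kinase gene whose M2 splice form prevails in tumours, fell 1.47-fold (-0.56 ± 0.11, adjusted p = 0.00735), and the values do not tell its splice forms apart. PGAM1, the phosphoglycerate mutase, fell 1.33-fold (-0.41 ± 0.09, adjusted p = 0.014), and ENO2, the neuron-type enolase, 1.31-fold (-0.39 ± 0.08, adjusted p = 0.01). None of these 4 falls reached 2-fold, and in each, as in every called member, the groups did not overlap. PGAM1, TPI1, GAPDH, PGK1 and other genes of this stretch have processed pseudogenes or copies of near-identical sequence, and how far the probes separate them was not tested. PGAM4, an intronless copy of PGAM1, was also called lower (-0.75 ± 0.12, adjusted p = 0.00341), though not without CDK8 siRNA replicate 1 or 2 (adjusted p = 0.0648 and 0.0845) or control siRNA replicate 2 (adjusted p = 0.0538).

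The 4 calls of this stretch depended on single arrays. That of TPI1 did not hold without control siRNA replicate 1 or 2 (adjusted p = 0.107 and 0.0935). Those of PKM, PGAM1 and ENO2 did not hold without CDK8 siRNA replicate 2 (adjusted p = 0.0587, 0.0798 and 0.0730), nor without control siRNA replicate 1 (adjusted p = 0.119, 0.144 and 0.0739) or without control siRNA replicate 2 (adjusted p = 0.0899, 0.105 and 0.105). A lone array is then assumed to vary like the other group, and fewer degrees of freedom remain.

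GAPDH, the glyceraldehyde-3-phosphate dehydrogenase that is often used as a reference gene, read 16.68 and 16.60 on the CDK8 siRNA arrays, against 16.59 and 16.44 on the control siRNA arrays. The groups lay next to each other, and the 95% interval of the difference ran from -0.09 to 0.34. PGK1, which makes the first ATP of the route, differed by 0.12, with an interval of -0.08 to 0.31. ENO1, the main enolase of most cells, read 14.75 and 14.60 on the CDK8 siRNA arrays, against 14.49 and 14.28 on the control siRNA arrays, a difference of 0.29 ± 0.10 that did not pass (adjusted p = 0.0634). It passed with the stricter filter (adjusted p = 0.0442), with quantile normalization (adjusted p = 0.0401) and with the replicate number as a block (adjusted p = 0.0387). GAPDH, PGK1 and ENO1 were thus not among the genes that fell, in contrast to their neighbours TPI1, PGAM1 and PKM, but differences between these genes were not tested.

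Of the 7 measured genes of pyruvate and lactate handling 4 fell, 0 rose and 3 did not pass. PDK3, one of the kinases that inactivate pyruvate dehydrogenase, read 5.65 and 5.36 on the CDK8 siRNA arrays, against 6.97 and 7.12 on the control siRNA arrays. Both CDK8 siRNA arrays lay well below the controls, and the fall was 2.91-fold (-1.54 ± 0.12, adjusted p = 0.000302). PDK2, a widely expressed kinase of the same family, read 5.94 and 5.83 on the CDK8 siRNA arrays, against 6.31 and 6.35 on the control siRNA arrays, and fell 1.36-fold (-0.45 ± 0.08, adjusted p = 0.00512). PDK1, a family member known as a HIF-1 target, differed by 0.05 (95% interval -0.13 to 0.23), with overlapping groups. The call of PDK2 did not hold without control siRNA replicate 1 or 2 (adjusted p = 0.0652 and 0.0754).

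The lactate dehydrogenase genes shifted little. LDHA, which favours the making of lactate, fell by 0.31 ± 0.09 (adjusted p = 0.0277), and LDHB, which favours its oxidation, fell by 0.33 ± 0.07 (adjusted p = 0.0131). LDHA read 12.56 and 12.40 on the CDK8 siRNA arrays, against 12.82 and 12.76 on the control siRNA arrays, so both groups kept a strong signal. The LDHA call did not hold without CDK8 siRNA replicate 2 (adjusted p = 0.102), nor without control siRNA replicate 1 or 2 (adjusted p = 0.180 and 0.137). The LDHB call did not hold without CDK8 siRNA replicate 1 or 2 (adjusted p = 0.0762 and 0.0730) and without control siRNA replicate 1 or 2 (adjusted p = 0.0909 and 0.0622). The genes of the pyruvate dehydrogenase E1 subunits did not pass. PDHA1, the alpha subunit, differed by -0.06 (95% interval -0.24 to 0.13), and PDHB, the beta subunit, by 0.19 (0.02 to 0.36, adjusted p = 0.0672), which passed with quantile normalization (adjusted p = 0.0398).

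GPD2, the mitochondrial glycerol-3-phosphate dehydrogenase of the shuttle, had the largest fall of the 32 genes. It read 8.01 and 7.87 on the CDK8 siRNA arrays, against 11.19 and 11.19 on the control siRNA arrays. The difference of -3.25 ± 0.08 is a 9.51-fold fall (adjusted p = 3.30e-05), rank 8 among the falls of all tested genes, and it exceeded the fall of CDK8 itself. GPD1L, a relative of the cytosolic enzyme of the shuttle, read 7.12 and 7.15 on the CDK8 siRNA arrays, against 7.16 and 6.93 on the control siRNA arrays. Its groups overlapped, and the 95% interval of the difference ran from -0.15 to 0.33. GPD1, the cytosolic enzyme itself, lay close to the filter level with 4.57 and 4.48 on the CDK8 siRNA arrays, against 4.39 and 4.53 on the control siRNA arrays (adjusted p = 0.569).

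The sequences upstream of 5 members are shown, picked only by a called fall of at least 2-fold, which 5.64% of all tested genes met. They are the 250 bases before the annotated start, from RefSeq on GRCh38.p14, 5′ to 3′ on the strand of the gene, taken at the most upstream start where a gene has several (HK2 and GPD2 have 2 each). Capitals mark ACGTG or GCGTG on either strand, the core of the hypoxia response element that HIF-1 binds. The windows are chr1:42958869-42959118 on the minus strand for SLC2A1, chr2:74833877-74834126 on the plus strand for HK2, chr17:28576896-28577145 on the minus strand for ALDOC, chrX:24465036-24465285 on the plus strand for PDK3 and chr2:156435302-156435551 on the plus strand for GPD2.
SLC2A1: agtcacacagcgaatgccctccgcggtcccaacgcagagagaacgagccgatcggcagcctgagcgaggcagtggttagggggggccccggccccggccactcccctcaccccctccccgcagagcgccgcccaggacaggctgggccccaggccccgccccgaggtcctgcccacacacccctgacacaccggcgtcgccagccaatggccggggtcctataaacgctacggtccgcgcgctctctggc
HK2: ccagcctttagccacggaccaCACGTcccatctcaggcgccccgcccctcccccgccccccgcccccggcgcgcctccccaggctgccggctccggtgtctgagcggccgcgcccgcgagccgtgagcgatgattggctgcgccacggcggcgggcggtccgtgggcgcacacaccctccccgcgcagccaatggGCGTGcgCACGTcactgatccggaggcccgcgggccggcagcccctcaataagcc
ALDOC: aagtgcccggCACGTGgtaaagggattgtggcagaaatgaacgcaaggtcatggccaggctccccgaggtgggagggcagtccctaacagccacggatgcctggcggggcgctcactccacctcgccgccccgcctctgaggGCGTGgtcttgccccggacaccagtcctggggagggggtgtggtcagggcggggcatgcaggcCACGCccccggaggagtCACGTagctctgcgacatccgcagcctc
PDK3: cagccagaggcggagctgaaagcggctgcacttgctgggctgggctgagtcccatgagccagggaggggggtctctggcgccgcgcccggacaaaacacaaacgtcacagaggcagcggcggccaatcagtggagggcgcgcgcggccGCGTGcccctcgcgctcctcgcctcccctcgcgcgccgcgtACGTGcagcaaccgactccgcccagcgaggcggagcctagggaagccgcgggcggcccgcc
GPD2: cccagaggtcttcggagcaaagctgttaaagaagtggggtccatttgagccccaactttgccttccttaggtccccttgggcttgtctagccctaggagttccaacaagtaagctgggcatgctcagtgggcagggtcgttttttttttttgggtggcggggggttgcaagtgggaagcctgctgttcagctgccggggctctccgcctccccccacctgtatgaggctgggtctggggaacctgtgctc

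The core occurred 3 times in the HK2 window, 5 times in that of ALDOC and 2 times in that of PDK3, and 0 times in those of SLC2A1 and GPD2. Overlapping matches were counted apart, as in the CACGTG of ALDOC, which holds the core on both strands. Of the 32 measured members 30 had an upstream window, and 17 of these (56.7%) held the core at least once, against 43.1% of 27305 genes. It was present for 7 of the 15 members called lower, for 1 of 3 called higher with a window, and for 9 of 12 not called. The E-box CACGTG, bound by MYC and by the glucose-responsive factors of the MLX family, was present for 4 of the 30 members (13.3%), against 6.46% of all genes. The GC box GGGCGG, searched on both strands, was present for 21 of 30 (70.0%), against 42.2%, and was held by 10 of the 15 members called lower, 2 of 3 called higher and 9 of 12 not called. The 27305 genes are all those with a window, measured here or not, and were not matched to the members for signal. The shares are therefore not read as a trait of these members. These matches describe letters in the windows, not binding.

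Beyond these members, 65 of 70 further genes of sugar transport, glycolysis and its reversal, pyruvate fate, NADH shuttles, the pentose phosphate pathway and their regulators were measured, and 46 passed the filter. Of the 46, 17 were called lower, 12 were called higher and 17 did not pass, and with 1 array left out 5 to 10 were called lower and 7 to 8 higher. A gene dim in one group could pass the filter through the other group, as HKDC1 did (mean 4.75 with CDK8 siRNA, against 3.98 with control siRNA), so these totals are not read against the background. Of the 7 listed genes of the pentose phosphate pathway, which draws on glucose-6-phosphate to make NADPH and ribose, 5 were measured, and all 5 were called lower (median -0.91), where 26.3% of all tested genes were. Each of the 5 lay above the filter level on every array. TALDO1, the transaldolase, read 10.82 and 10.93 on the CDK8 siRNA arrays, against 12.31 and 12.12 on the control siRNA arrays, and fell 2.53-fold (-1.34 ± 0.10, adjusted p = 0.000232). TKT, the transketolase, fell 1.94-fold (-0.95 ± 0.10, adjusted p = 0.000933). PGD, which makes NADPH, fell 1.87-fold (-0.91 ± 0.13, adjusted p = 0.00276), a call that did not hold without CDK8 siRNA replicate 2 (adjusted p = 0.0573), nor without control siRNA replicate 1 or 2 (adjusted p = 0.0767 and 0.0547). TIGAR, a phosphatase that lowers fructose-2,6-bisphosphate and is a known p53 target, read 9.12 and 8.90 on the CDK8 siRNA arrays, against 7.84 and 7.85 on the control siRNA arrays, and rose 2.24-fold (1.17 ± 0.10, adjusted p = 0.000349).

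Around the pyruvate dehydrogenase complex, genes moved both ways. PDHX, which anchors the E3 subunit, rose 1.93-fold (0.94 ± 0.08, adjusted p = 0.000427), as did DLD, the E3 subunit itself, by 1.92-fold (adjusted p = 0.000318). PDPR, the regulatory subunit of the phosphatase that reactivates the complex, read 7.54 and 7.46 on the CDK8 siRNA arrays, against 8.85 and 8.80 on the control siRNA arrays, and fell 2.51-fold (-1.33 ± 0.07, adjusted p = 0.000124). PDP1, a catalytic subunit of that phosphatase, was called higher (0.515 ± 0.07, adjusted p = 0.00231). It read 14.94 and 15.01 on the CDK8 siRNA arrays, against 14.47 and 14.45 on the control siRNA arrays. MPC1, a subunit of the mitochondrial pyruvate carrier, fell 1.80-fold (-0.85 ± 0.08, adjusted p = 0.000679), while its partner subunit MPC2 was called higher by 0.29 ± 0.08 (adjusted p = 0.0239). The MPC2 call did not hold with centred arrays (adjusted p = 0.0629) or with any 1 of the 4 arrays left out (adjusted p = 0.0762 to 0.136). SLC16A7, the monocarboxylate transporter MCT2, read 7.26 and 7.28 on the CDK8 siRNA arrays, against 6.27 and 6.17 on the control siRNA arrays, and rose 2.07-fold (1.05 ± 0.07, adjusted p = 0.000237). Of the 8 genes of the NADH shuttles 4 fell, 1 rose and 3 did not pass. Of the 6 tested regulators 2 were called higher, 1 lower and 3 did not pass. The shares called, 62.5% of the shuttle genes and 50% of the regulators, stand beside 49.5% of all tested genes. Neither count is read as a result about these groups. HIF1A, the oxygen-sensitive subunit of HIF-1, read 13.38 and 13.47 on the CDK8 siRNA arrays, against 13.98 and 13.94 on the control siRNA arrays, and fell 1.45-fold (adjusted p = 0.0023). The HIF1A call did not hold without control siRNA replicate 1 (adjusted p = 0.0516). MYC read 11.05 and 10.89 on the CDK8 siRNA arrays, against 10.59 and 10.36 on the control siRNA arrays, and was called higher (0.49 ± 0.11, adjusted p = 0.0123), a call that did not hold with any 1 of the 4 arrays left out (adjusted p = 0.0585 to 0.136). ARRDC4, an arrestin-domain gene that glucose induces through MLX-family factors, was called higher (0.44 ± 0.07, adjusted p = 0.00486), which did not hold without CDK8 siRNA replicate 1 or 2 (adjusted p = 0.0520 and 0.0557) or control siRNA replicate 1 (adjusted p = 0.0591). Of the other regulators, EPAS1 differed by 0.035, MLXIP by 0.045 and MLXIPL by -0.265 without being called (adjusted p = 0.713, 0.633 and 0.0505). TXNIP lay below the filter, at 3.19 and 3.37 on the CDK8 siRNA arrays, against 3.21 and 3.26 on the control siRNA arrays. DLD, PDP1, MPC1, MPC2, all regulators, GPD1, HKDC1, PFKFB1 and PGAM4 were named after their values were seen.

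**Figure D4:**
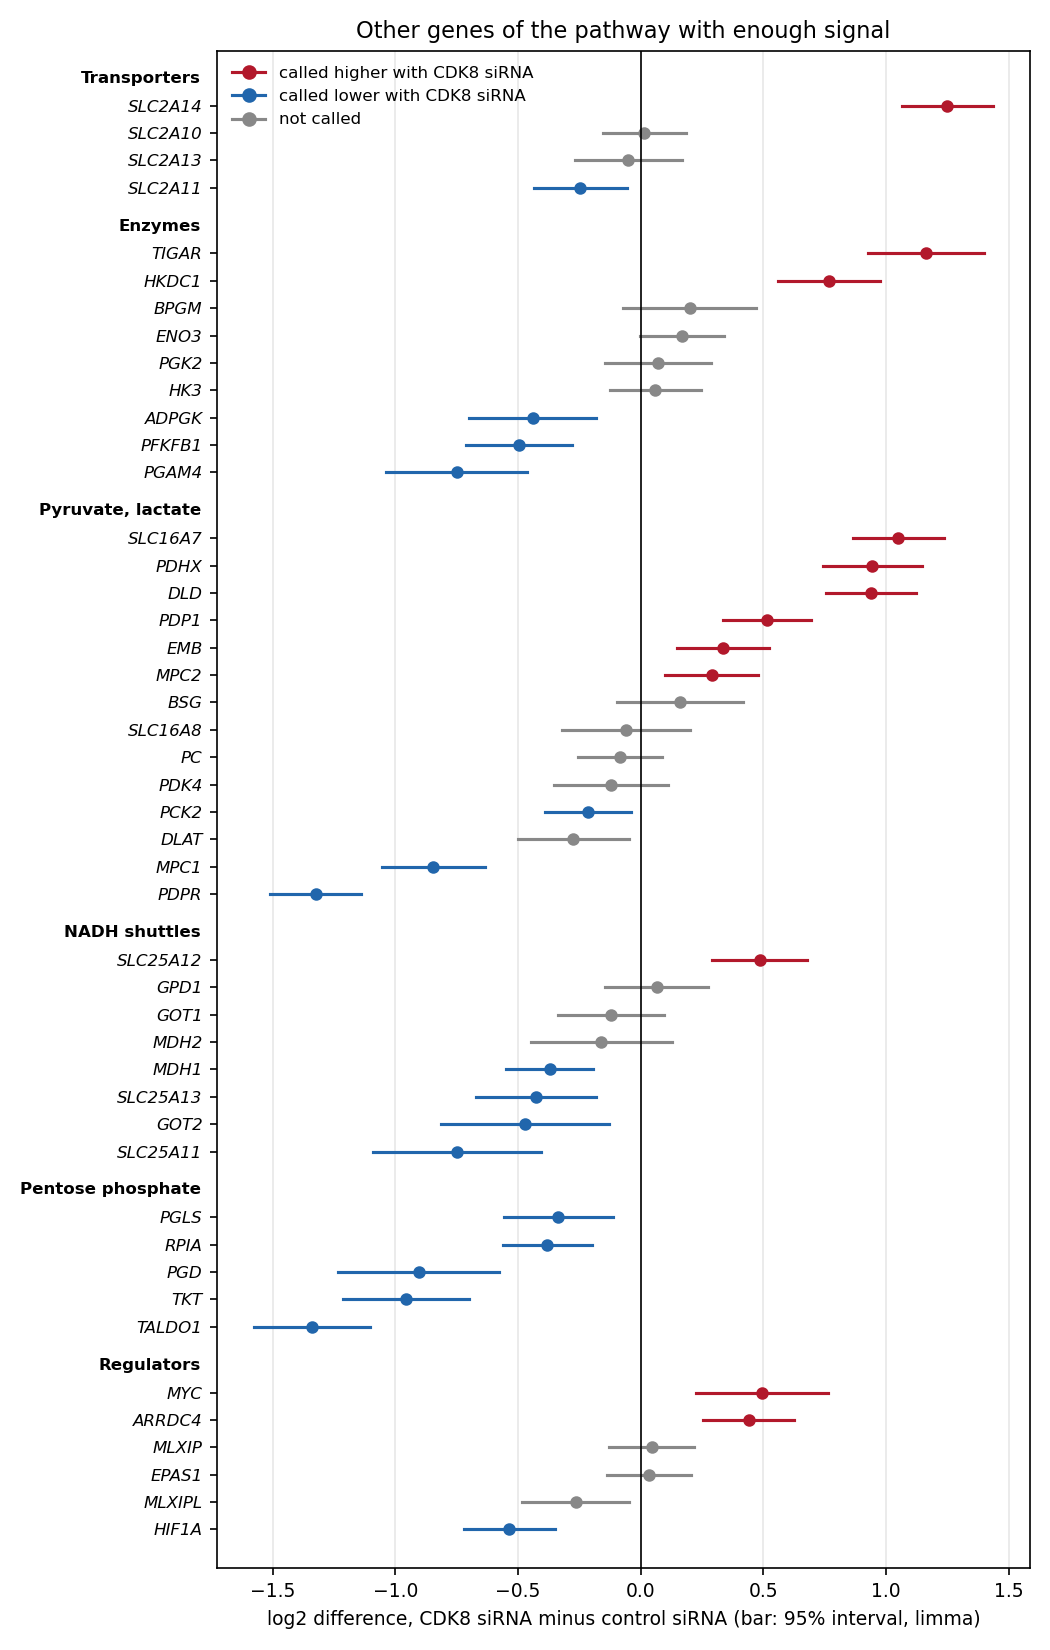
Log2 difference (CDK8 siRNA minus control siRNA, x axis) of the 46 further pathway genes that passed the signal filter, by group, with the 95% interval of limma as a bar (n = 2 arrays per group). All 5 pentose phosphate genes lie left of 0, between -0.34 and -1.34, and the other groups hold genes on both sides.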

How the data were processed

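RNA of 4 HCT116 samples was labelled with the WT PLUS kit and hybridised to Affymetrix arrays, per the labels' protocols. The deposited values are log2 signals made by the authors; per the submitters' processing notes the tools were Affymetrix Expression Console and RMA. Versions and genome build were not given in the sources used here. Of 70523 rows, 67528 were transcript clusters, and the other 2995 were left out. Symbols came from the platform annotation, which gives 23781 clusters 1 symbol, 1543 several and 42204 none; 266 symbols were updated through RefSeq (23737 matched). The brightest cluster stood for a gene.

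Groups came from the sample titles and entered 1 limma fit (version 3.58.1, R 4.3.3, lmFit and eBayes without covariates) over 13962 genes, with Benjamini-Hochberg adjustment. The fit was tested on simulated data. The number of arrays limits the precision: the median standard error was 0.0832, the smallest called difference 0.21, and an exact permutation test of 2 against 2 arrays cannot go below p = 0.333. Members, lists and alternatives were chosen with earlier results of these data known. All members are named; values on each array are given for called differences of at least 2-fold and the largest in each role, and up to 4 further pathway genes in each direction are named by size. Promoter windows came from RefSeq. Alternatives were other filters, scalings, variance settings, cluster rules, a replicate block and each array left out. Figures were drawn with matplotlib 3.10.9.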

Additional observations from a re-analysis of the deposited data

How the results depend on the processing

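The settings with all 4 arrays kept 17 of the 20 member calls in every setting where the gene was tested, and the exceptions SLC2A6, GPI and PFKFB2 are given in the report. With arrays centred on their medians 3 members were called higher in place of 5, and a stricter filter, at the 75th percentile (6.17), tested 25 members, for which the median difference was -0.31 in place of -0.02 (all genes -0.01 in place of 0.005). The median over all genes was -0.07 with centred arrays, against 0.005. Under the replicate block 6 members were called higher and 15 lower. The labels do not say that a replicate number marks a shared culture or day. Deviations of same-numbered arrays correlated with r = 0.121 over all tested genes and -0.0447 over the members; 2 pairs cannot settle whether the numbers pair the samples, and the block was kept as an alternative. With 1 array left out, members called higher ranged from 1 to 3 and members called lower from 6 to 12, further pathway genes called higher from 7 to 8 and lower from 5 to 10, and all genes called higher from 1383 to 2086 and lower from 1749 to 2410. Calls of 6 members (SLC2A3, HK2, PFKL, ALDOC, PDK3 and GPD2) held with each array left out, and 14 were lost at least once; such fits have fewer samples. Changes of sign occurred in 4 members that were not called. SLC2A8 differed by -0.044 with quantile normalization, -0.06 with centred arrays, -0.015 without CDK8 siRNA replicate 1 and -0.02 without control siRNA replicate 2 (range -0.02 to 0.05 with 1 array left out). ALDOA and PDK1 each differed by -0.025 with centred arrays, and GPD1L by -0.025 without control siRNA replicate 2 (range -0.025 to 0.205). The cause was not tested.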

Other observations

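Replicate 1 read above replicate 2 in 25 of the 32 members on the CDK8 siRNA arrays and in 22 of 32 on the control siRNA arrays, against 7512 and 7521 of 13962 tested genes.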
